A study of Mus musculus with 18 samples.

Results

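Nqo1 and Acsm4 were chosen by their symbols in the table of gene expression values, as 2 genes of 23359 symbols, and each stood in a single row. The choice was made with earlier results of these data known. Both genes are known as markers of the dorsal zone of the main olfactory epithelium (MOE), the lining of the nose in which the olfactory sensory neurons (OSNs) sit. RNA-seq had been carried out on OSNs and other cells sorted from mouse MOE, in order to compare neurons that express trace amine-associated receptors (TAARs) with neurons that express odorant receptors (ORs). By the study's account most olfactory Taar genes are expressed mainly in the dorsal MOE, while Taar6, Taar7a and Taar7b lie more ventrally.

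The 18 libraries fall into 4 groups by their labels. The mice carried Taar5-ires-Cre with lox-L10-GFP or Taar6-ires-Cre with lox-ZsGreen, knock-in alleles in which Cre is made from the transcript of the receptor gene and then switches on the fluorescent reporter for good. In the Taar5 line (P11-14), 7 libraries came from GFP-positive cells (Taar5+) and 9 from GFP-negative cells (control). In the Taar6 line (P16-17), 1 library came from ZsGreen-positive cells (Taar6+) and 1 from ZsGreen-negative cells (Taar6 control). Control cells therefore carry the same alleles as the labelled cells. The strain is C57BL/6 by the labels, while the study's reporting summary gives a mixed background and an older age. Reporter-positive cells are cells that once transcribed the Cre allele and hold a mixture of Taar genes, while control cells are mostly OR OSNs from all zones together with other cell types. The labels do not say which libraries came from separate mice or sorts, so the p-values measure the spread between these libraries, which may be technical.

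The mammalian MOE is divided along its dorsal to ventral axis into zones, and each OSN expresses a receptor that belongs to its zone. NQO1, an NAD(P)H quinone oxidoreductase, reduces quinones with a pair of electrons at a time, is a classic target of the transcription factor NRF2, and marks dorsal-zone OSNs and their axons. ACSM4, also called O-MACS, is a medium-chain acyl-CoA synthetase, which couples fatty acids to coenzyme A, and its transcript is likewise restricted to the dorsal MOE.

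The identity of the libraries was checked first. Omp, a marker of mature OSNs, lay between 3908 and 20070 TPM in the 16 libraries of the Taar5 line. TPM, transcripts per 1000000, is a length-corrected share of a library, so that levels of different genes can be set side by side. Summed Taar TPM ranged from 1517 to 7804 in Taar5+ libraries and from 94.5 to 403 in controls. Control replicate 2 and Taar5+ replicate 5 stood apart through genes of sustentacular cells, the supporting cells of the MOE. The summed TPM of 5 such genes was 12291 in control replicate 2 and 9851 in Taar5+ replicate 5, against 42.2 to 1084 in the other controls and 104 to 3231 in the other Taar5+ libraries. Control replicate 2 also had values above 0 in only 5939 rows of the table, against 11352 to 17015 in the other controls, and its values for 13 Taar genes were identical to those of control replicate 1, while 0 other genes above 0 were. Results on which these libraries bear are given with and without them.

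Nqo1 (ENSMUSG00000003849) lies on the minus strand of chromosome 8, from 107388225 to 107403206 in GRCm38, with 6 exons in the 1 annotated transcript. Acsm4 (ENSMUSG00000047026) lies on the plus strand of chromosome 7, from 119690026 to 119714565, with 14 exons in the 1 annotated transcript, inside a cluster that also holds Acsm5, Acsm2, Acsm1 and Acsm3. Neither gene overlaps another annotated gene. Because the Acsm genes are related in sequence, shared words of 50 bases were searched for, and 0 of 2103 words of Acsm4 and 0 of 1504 words of Nqo1 were found in transcripts of other genes. The 250 bases before each start in RefSeq (GRCm38.p6) are shown because the levels of these genes moved in opposite directions, and the capitals mark the only matches to the motifs searched. For Nqo1 the window is chr8:107403206-107403455 on the minus strand, and for Acsm4 it is chr7:119689776-119690025 on the plus strand.
Nqo1: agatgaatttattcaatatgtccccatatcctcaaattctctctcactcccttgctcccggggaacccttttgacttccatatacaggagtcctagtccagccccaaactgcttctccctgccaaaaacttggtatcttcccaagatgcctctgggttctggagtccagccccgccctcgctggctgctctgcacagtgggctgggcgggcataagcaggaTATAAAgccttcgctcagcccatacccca
Acsm4: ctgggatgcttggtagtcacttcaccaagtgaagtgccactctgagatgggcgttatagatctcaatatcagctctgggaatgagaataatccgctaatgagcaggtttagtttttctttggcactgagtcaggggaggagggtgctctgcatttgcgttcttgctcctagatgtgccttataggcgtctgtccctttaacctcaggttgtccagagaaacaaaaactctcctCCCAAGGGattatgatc

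The capitals in Nqo1 are a TATA box (TATAAA) at position -29 from the start, a word found on either strand in 12.37% of 32851 mouse promoter windows of this length. The capitals in Acsm4 are a match to the EBF core CCCNNGGG, palindromic between the strands, at position -17, a word found in 11.82% of the windows. EBF proteins are the Olf-1 transcription factors of OSNs. Neither window held the antioxidant response element core TGACNNNGC on either strand (10.16% of windows did), the homeodomain core TAATTA (4.84%) or the full palindromic NFI site (0.0365%). The letters describe these windows alone, and no binding was measured in these libraries. The GC content was 53.2% in Nqo1 and 47.2% in Acsm4.

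The 2 dorsal markers moved in opposite directions. Nqo1 was lower in Taar5+ cells than in control cells, at 264 ± 187 TPM (SD, n = 7) against 1354 ± 412 TPM (SD, n = 9). The Taar5+ libraries ranged from 126 to 675 TPM (median 209 TPM), and the controls from 479 to 1742 TPM (median 1518 TPM). The ranges met only through the 2 libraries that stood apart: 6 of 7 Taar5+ libraries lay below every control, the exception being Taar5+ replicate 5 at 675 TPM, and 8 of 9 controls lay above every Taar5+ library, the exception being control replicate 2 at 479 TPM. Nqo1 remained a detected transcript in every Taar5+ library. Its rank by level within a library ran from 47 to 304 in controls and from 186 to 1431 in Taar5+ libraries.

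Acsm4 was higher in Taar5+ cells, at 1476 ± 565 TPM (SD, n = 7) against 511 ± 199 TPM (SD, n = 9). Its Taar5+ libraries ranged from 759 to 2462 TPM (median 1448 TPM), and its controls from 247 to 836 TPM (median 467 TPM). Here too the groups touched at their edges, with 6 of 7 Taar5+ libraries above every control and 7 of 9 controls below every Taar5+ library. Taar5+ replicate 5 was the lowest of its group, while control replicate 2 at 812 TPM and control replicate 4 at 836 TPM were the highest controls. Acsm4 ranked between 160 and 712 in controls and between 34 and 149 in Taar5+ libraries, so that it stood among the most abundant transcripts there.

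**Figure D1:**
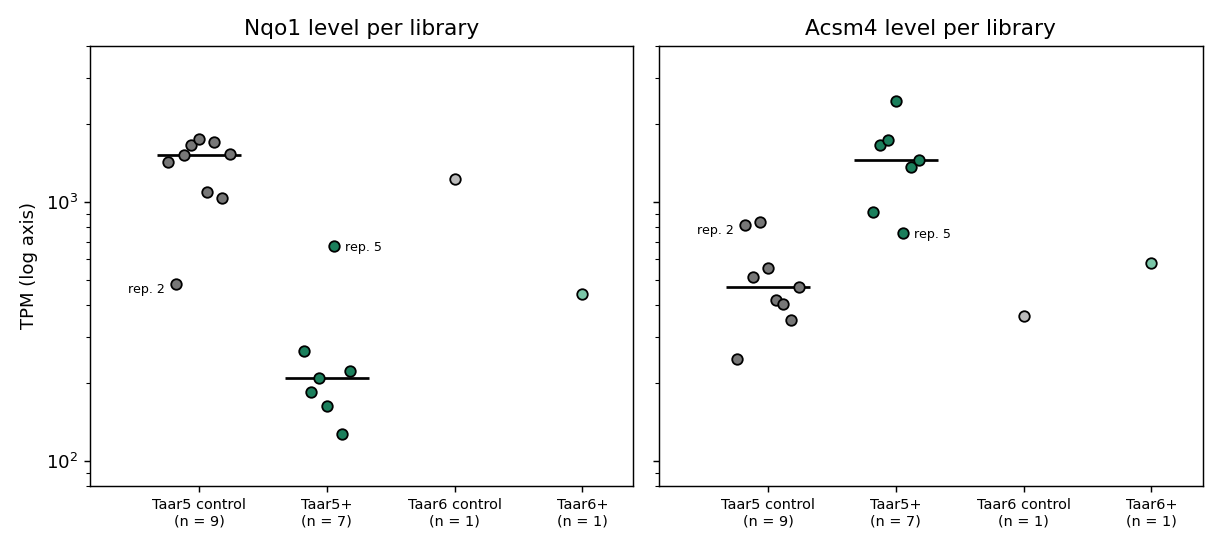
Levels of Nqo1 (left) and Acsm4 (right) in each library, in TPM on a log axis, for the 4 groups. Points are libraries and bars are medians of the groups with more than 1 library. Nqo1 sits lower in Taar5+ libraries (median 209 TPM) than in Taar5 controls (median 1518 TPM) and Acsm4 sits higher (1448 against 467 TPM), with replicate 5 of Taar5+ and replicate 2 of the controls nearest to the other group.

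Both differences passed the test across all genes. In limma on log2(TPM + 1), the log2 fold change of Nqo1 was -2.48 (SE 0.31, 95% confidence interval -3.12 to -1.83, adjusted p = 0.000312), a level 5.58-fold lower in Taar5+ cells. That of Acsm4 was 1.53 (SE 0.26, 95% confidence interval 0.98 to 2.08, adjusted p = 0.00994), a level 2.89-fold higher. Among all 12502 genes tested 21 passed the threshold of 0.05, a background of 0.168%, made up of 0.144% that were higher and 0.024% that were lower. The balance of directions depended on single libraries and on the scaling: 18 genes were called higher and 3 lower, against 31 and 117 without control replicate 2, 30 and 36 without Taar5+ replicate 5, and 49 and 288 without both. It was 8 and 3 after rescaling without receptor genes, 28 and 8 after quantile scaling, and 17 and 19 relative to mature OSN genes. At an unadjusted p under 0.05 the background was 7.05%. Ordered by p-value, Nqo1 stood at position 5 and Acsm4 at position 15. Complete separation of the groups was met by 0.144% of genes, and neither Nqo1 nor Acsm4 was among them. In bulk libraries, fewer cells that express a gene and less RNA of it per cell cannot be told apart.

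A run without control replicate 2 and Taar5+ replicate 5 was added after seeing the data. Both differences were larger there and the groups no longer overlapped, against a background of 2.83% of 11915 genes called and 1.15% without overlap. Nqo1 then ranged from 126 to 266 TPM in Taar5+ libraries and from 1039 to 1742 TPM in controls, with a log2 fold change of -2.92 (limma adjusted p = 1.11e-08). Acsm4 ranged from 913 to 2462 TPM and from 247 to 836 TPM, with a log2 fold change of 1.77 (limma adjusted p = 0.000401). Nqo1 passed the threshold under each alternative run. Acsm4 kept its direction but missed the threshold under 2 of them, with a log2 fold change of 1.38 (adjusted p = 0.157) when expressed relative to 8 mature OSN genes and with an adjusted p of 0.113 when limma was run without the mean-variance trend.

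The ratio of Acsm4 to Nqo1 within a library does not depend on how the library was scaled. It was below 1 in 8 of 9 controls, where Nqo1 was the more abundant transcript, and above 1 in 7 of 7 Taar5+ libraries, where Acsm4 was. The ratios of the Taar5+ libraries, in the order of replicates 1 to 7, were 3.43, 8.99, 8.25, 15.2, 1.12, 10.8 and 6.54. Those of control replicates 1 to 9 were 0.174, 1.69, 0.338, 0.502, 0.318, 0.383, 0.238, 0.336 and 0.305. Control replicate 2 was thus the only control above 1, and its ratio exceeded that of Taar5+ replicate 5, the lowest of its group. All other libraries were separated by group. The mean log2 ratio differed by 4.01, a 16.1-fold difference (exact two-sided permutation test over all 11440 arrangements, p = 0.000175). Both genes had already been called in opposite directions, and the p is not corrected for the choice of this pair. It is therefore not separate support. Without the 2 libraries, left out after seeing the data, the difference was 4.68, or 25.7-fold. As these were the libraries through which the groups overlapped, the exact permutation p of 0.000333 is the smallest that 3003 arrangements allow. It adds no support.

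**Figure D2:**
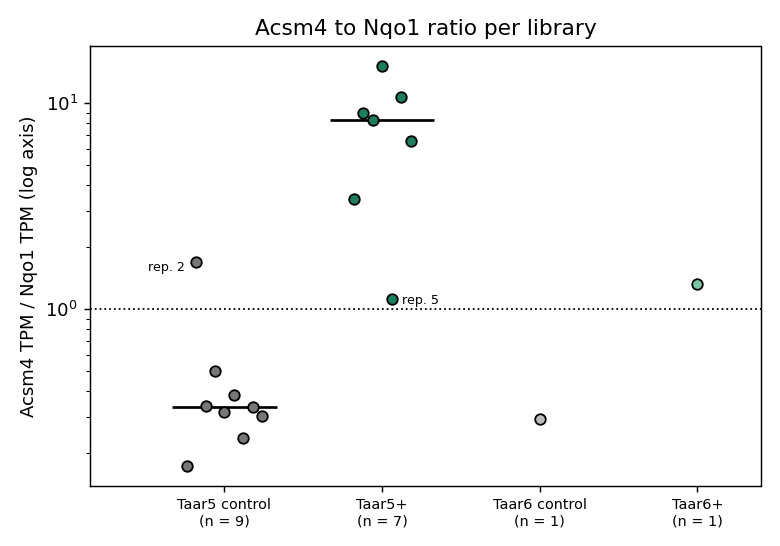
Ratio of Acsm4 TPM to Nqo1 TPM in each library on a log axis, with the dotted line at a ratio of 1 and bars at the medians of groups with more than 1 library. Taar5+ libraries lie between 1.12 and 15.2 and 8 of 9 Taar5 controls lie between 0.174 and 0.502, with control replicate 2 at 1.69.

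In the Taar6 line, each group is a single library, so the differences have no replicate check and no test. The study reports that Taar6+ cells held ventral as well as dorsal Taar genes. Nqo1 was listed at 440 TPM in Taar6+ cells and at 1226 TPM in the Taar6 control, a log2 difference of -1.48. Acsm4 was listed at 582 TPM and 362 TPM, a log2 difference of 0.69. Their ratio was 1.32 in Taar6+ cells and 0.295 in the control, so that here as well Acsm4 was the more abundant transcript in reporter-positive cells and Nqo1 in control cells. The signs are those of the Taar5 line, whereas the sizes were not compared, because the levels of the lines are not on a common footing: Gapdh, a glycolytic enzyme made by every cell, was listed at 1.43 and 6.06 TPM in the Taar6 line against 436 to 1222 TPM in the Taar5 line, and Ppia, a chaperone that is as widespread, stood at 0 in Taar6+ cells and their control.

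Control cells were mostly OR OSNs, and the summed TPM of OR genes was used as a measure of how much OR transcript a library held. It ranged from 225 to 5525 TPM in Taar5+ libraries and from 6174 to 20251 TPM in controls. Per 1000 TPM of OR transcript, Nqo1 was higher in Taar5+ libraries (median 329, range 104 to 720) than in controls (median 91.7, range 61.9 to 114). Acsm4 on that scale was also higher (median 2340 against 33.7). The OR sum itself had a median of 619 TPM in Taar5+ libraries and 15462 TPM in controls. Any gene that fell less than OR transcript is higher on this scale, so its direction adds nothing about Nqo1 or Acsm4. Within the Taar5+ libraries, Acsm4 fell as OR transcript rose: the library with the least OR transcript, replicate 4 at 225 TPM, had the most Acsm4, at 2462 TPM, and replicate 5 with the most, 5525 TPM, had the least Acsm4, at 759 TPM. The order of the 7 libraries by Acsm4 was the exact reverse of their order by OR transcript (on log scales, Pearson's r = -0.98, exact permutation p = 0.000198, adjusted p = 0.00198 over 10 relations; Spearman's rho = -1, exact permutation p = 0.000397, adjusted p = 0.00397). Without replicates 5 and 1, the libraries farthest from the median of OR transcript, r was -0.95 (n = 5). As all TPM of a library share a total, and OR sum and Acsm4 come from the same libraries, these are not separate measurements.

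The relation of Nqo1 to OR transcript did not pass the adjusted threshold. Over the 7 Taar5+ libraries its r with OR transcript was 0.76 (exact permutation p = 0.0599, adjusted p = 0.105) and rho was 0.61 (exact permutation p = 0.167, adjusted p = 0.393), but without replicates 5 and 1 r was -0.33 (n = 5). The 6 other libraries held Nqo1 between 126 and 266 TPM, and the lowest of them, replicate 6, had the third highest OR sum of the group at 1212 TPM. Nqo1 and Acsm4 tended to opposite levels within the Taar5+ group (r = -0.75, exact permutation p = 0.0454 and adjusted p = 0.105, rho = -0.61, exact permutation p = 0.167, adjusted p = 0.393), which rested on the extremes, since r was -0.39 without replicates 5 and 4 (n = 5). Within the 9 controls none of the relations of Nqo1 or Acsm4 passed the adjusted threshold, and the one between Nqo1 and Acsm4 had r = -0.27 (exact permutation, adjusted p = 0.461).

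**Figure D3:**
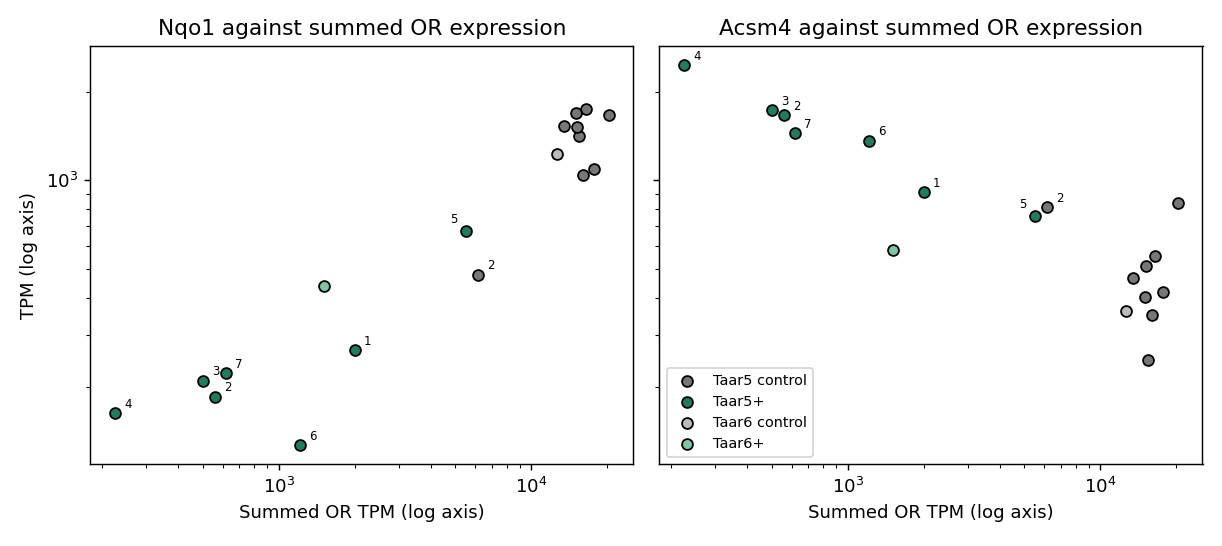
Level of Nqo1 (left) and Acsm4 (right) against the summed TPM of OR genes, both on log axes, 1 point per library coloured by group, with replicate numbers for Taar5+ libraries and for control replicate 2. Acsm4 descends from 2462 to 759 TPM across the Taar5+ libraries as OR transcript rises from 225 to 5525 TPM, while 6 of 7 Taar5+ libraries hold Nqo1 between 126 and 266 TPM.

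The other cell types that the sorted cells could hold were read beside these levels. In Taar5+ libraries Acsm4 was lower where sustentacular genes were higher (r = -0.90, exact permutation p = 0.00417, adjusted p = 0.0208, rho = -0.86, adjusted p = 0.119), and without the 2 libraries farthest from the median r was -0.61 (n = 5). Nqo1 had r = 0.66 with the same genes (exact permutation, adjusted p = 0.107; rho = 0.54), and -0.60 without 2 libraries. Of the 5 sustentacular genes and of the 8 mature OSN genes 0 differed between the groups, also at an unadjusted p under 0.05. The sum of the mature OSN genes ranged from 14853 to 25134 TPM in Taar5+ libraries and from 5975 to 27890 TPM in controls. Markers of horizontal basal cells, the reserve stem cells of the MOE, had sums of 0 to 181 TPM in Taar5+ libraries and 0 to 123 TPM in controls, with medians of 5.01 and 98.0 TPM. For these, 0 of 3 genes passed the threshold and 3 of 3 had an unadjusted p under 0.05. Without control replicate 2 and Taar5+ replicate 5, 3 of 3 were called lower in limma: Krt14 (-4.44, adjusted p = 5.5e-05), Krt5 (-3.91, adjusted p = 0.00272) and Trp63 (-2.97, adjusted p = 0.00102). Without these libraries 1 marker each of microvillar cells (Ascl3, -4.25, limma adjusted p = 0.00989), progenitors (Top2a, -2.60, limma adjusted p = 0.043) and immune cells (C1qb, -3.65, limma adjusted p = 0.0317) was also called lower, and with them 0 of 2, 0 of 4 and 0 of 5 tested genes of those lists were, of which 1, 0 and 2 had an unadjusted p under 0.05. Over all genes with all libraries, 7.05% had an unadjusted p under 0.05. Without the 2 libraries 2.83% of 11915 genes were called, 49 higher and 288 lower. The called markers of other cell types were thus lower, as most called genes of that run were. Uncalled markers moved in both directions: with all libraries, 3 sustentacular genes were above 0 and 2 below. The part of other cell types in the levels of Nqo1 and Acsm4 was not tested.

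Genes with a related role were then read beside the pair. Among markers of the ventral zone, the opposite pole to these dorsal markers, 0 of 5 tested genes passed the threshold and 4 of 5 had an unadjusted p under 0.05, with a median log2 fold change of -1.41 against 0.02 over all genes. Over all genes 7.05% had such an unadjusted p. Nfix and Nfib, nuclear factor I transcription factors that are more abundant in ventral OSNs, had log2 fold changes of -2.56 (limma adjusted p = 0.0728) and -1.77 (limma adjusted p = 0.304). Nfia, Nfib and Nfix were called in limma without the 2 libraries, where 2.83% of all genes were called, 49 higher and 288 lower. With all libraries, Nrp2 was at -1.41 (limma adjusted p = 0.701). Ncam2 was at 0.003 (limma adjusted p = 0.999) and, without the 2 libraries, at -0.07, so not every ventral marker was lower. Axon guidance genes with graded expression among OSNs, not all of them along the zones, gave 0 of 4 calls. None of them had an unadjusted p under 0.05, and the median was 0.25. The lowest p among them belonged to Slit1 (0.67, limma adjusted p = 0.949) and Nrp1 (0.62, limma adjusted p = 0.955). Robo2 was at -0.27 (limma adjusted p = 0.956) and Sema3f at -0.12 (limma adjusted p = 0.989). Thus Nqo1 had the sign of the ventral list's median, a decrease that Ncam2 did not share, and Acsm4 had the opposite sign.

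NRF2, encoded by Nfe2l2, drives Nqo1 in many tissues, so its regulators and other targets were listed. Nfe2l2 ranged from 181 to 458 TPM in Taar5+ libraries and from 169 to 532 TPM in controls, with a log2 fold change of -0.16 (limma adjusted p = 0.968). On the list of its regulators, partners and relatives, which includes Nfe2l2 itself, 0 of 6 tested genes were called (0 at an unadjusted p under 0.05, median 0.49). The lowest p were those of Cul3 (0.80, limma adjusted p = 0.947) and Mafg (0.72, limma adjusted p = 0.955). Of 18 tested targets besides Nqo1, 0 were called and 1 had an unadjusted p under 0.05, with 9 above and 9 below 0 and a median of -0.04. The target with that p was Ftl1, the ferritin light chain, at -0.57 (limma adjusted p = 0.493), followed by G6pdx of the pentose phosphate pathway at -0.42 (limma adjusted p = 0.936). Nqo1 therefore lay outside the range of these targets, which ran from -0.57 to 0.62. Other quinone and carbonyl reductases, enzymes related to NQO1 in function, gave 0 calls of 7 tested, with 1 at an unadjusted p under 0.05: Aifm2, also known as FSP1, a reductase of coenzyme Q, at 1.61 (limma adjusted p = 0.512). Cbr1, a carbonyl reductase, followed at -0.22 (limma adjusted p = 0.935). The paralog Nqo2 was low, at 0 to 24.5 TPM in Taar5+ libraries and 0 to 17.2 TPM in controls.

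Acsm4 was far more abundant than its relatives, none of which exceeded 40.3 TPM in a library of the Taar5 line. Acsm1 was listed at 0 to 3.98 TPM in Taar5+ libraries and 0 to 1.96 TPM in controls, Acsm2 at 0 in each Taar5+ library, and Acsm5 at 0 in all 18 libraries. Acsm3 was the only relative with enough expression to be tested (log2 fold change -0.55, limma adjusted p = 0.970). Among 15 tested genes of the other acyl-CoA synthetase families 0 were called and 1 had an unadjusted p under 0.05, with a median of 0.26. That gene was Acss2, which makes acetyl-CoA from acetate, at 0.96 (SE 0.21, limma adjusted p = 0.0758), and it was called without the 2 libraries (limma adjusted p = 0.00434). Slc27a2, a fatty acid transporter with synthetase activity, followed at 0.34 (limma adjusted p = 0.803). The enzymes of medium-chain fatty acid oxidation, which could use the product of ACSM4, had a median of -0.05 over 14 tested genes, 0 of them called and 0 with an unadjusted p under 0.05. The lowest p among them were those of Hadhb (0.38, limma adjusted p = 0.852) and Acaa2 (-0.92, limma adjusted p = 0.936).

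**Figure D4:**
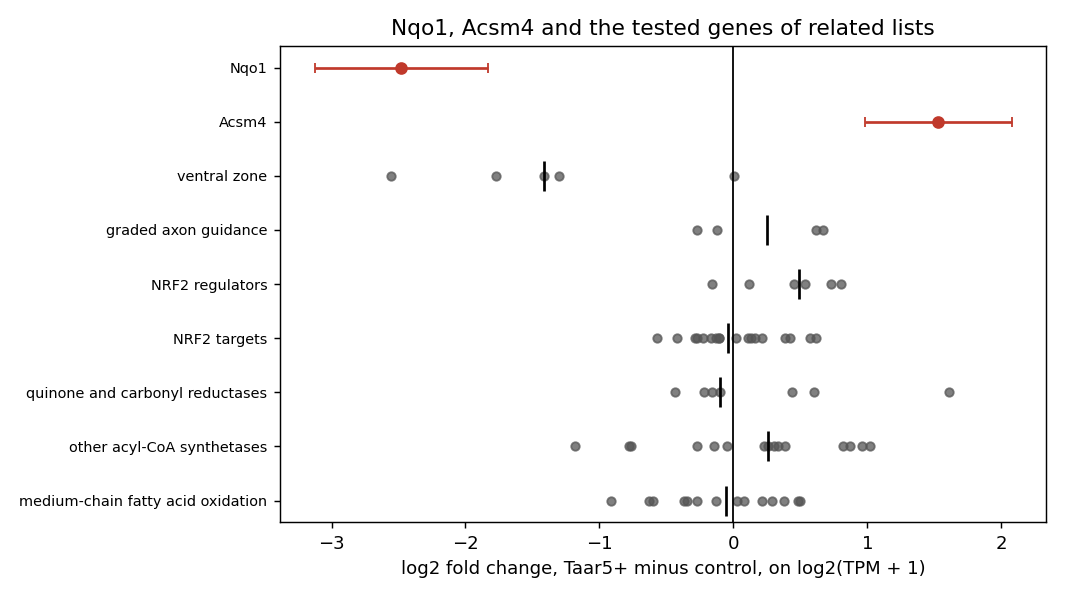
Log2 fold changes (Taar5+ minus control, on log2(TPM + 1)) of Nqo1 and Acsm4 with 95% confidence intervals, and of each tested gene of 7 related lists as points with the list's median as a bar. Nqo1 at -2.48 lies outside the NRF2 targets (-0.57 to 0.62), and Acsm4 at 1.53 lies above each of the other acyl-CoA synthetases, the highest of which is at 1.02.

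The neighbouring genes did not pass the test. Nfat5 and Nob1, 8708 and 9280 bases from Nqo1, had log2 fold changes of 0.17 (limma adjusted p = 0.981) and 0.79 (limma adjusted p = 0.949). Thumpd1, 528 bases from Acsm4, was at -0.30 (limma adjusted p = 0.955), and Acsm1, 27511 bases away on the other side, was too low to be tested. At neither locus, then, was a difference of the adjacent genes detected alongside that of the marker.

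The genes whose levels followed the pair most closely were found by Pearson's r on log2(TPM + 1) over the 16 libraries. The search covered 7894 tested genes with a mean of at least 10 TPM and left out OR and Taar genes. Whether receptor genes followed the pair as closely was therefore not examined. The r over the 16 libraries mix the difference between the groups with the spread inside them. For this reason r was also taken on deviations from the group means, and no p is given. The levels most like those of Nqo1 belonged to Mboat1 (r = 0.92), Mfng (0.88), Gadd45g (0.86), Rgs2 (0.86) and Prom1 (0.85). Mboat1 is a lysophospholipid acyltransferase and Mfng a modifier of Notch. Inside the groups the closest were Mfng (0.96), Mcm6 (0.94), Anxa4 (0.93), Cdyl2 (0.90) and Gadd45g (0.89), which fell to between 0.71 and 0.90 without control replicate 2 and Taar5+ replicate 5.

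For Acsm4 the most similar levels were those of Acss2 (r = 0.94), Psmd14 (0.92), Ppa1 (0.91), Ndfip1 (0.83) and Chgb (0.83). Psmd14 is a deubiquitinase of the proteasome lid and Ppa1 a cytosolic pyrophosphatase that splits the pyrophosphate released when acyl-CoA is made. Psmd14 and Ppa1 were themselves called in limma, with log2 fold changes of 1.83 (adjusted p = 0.004) and 2.34 (adjusted p = 5.6e-05). Inside the groups the closest were Chgb (0.87), Sdhb (0.87), Acss2 (0.83), Chmp2a (0.82) and Sar1b (0.80). Acss2 and Chgb, a granin of secretory granules, thus appeared under both measures. Nqo1 and Acsm4 had r = -0.86 with each other over the 16 libraries and -0.51 on the deviations.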

How the data were processed

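Per the study's methods, the authors used Smart-seq2 (PCR amplification of full-length cDNA, no molecular identifiers), mapped reads to mm10 with HISAT2 2.1.0 and quantified genes with Cufflinks 2.2.1 (Trimmomatic 0.36 is named in the submitters' processing notes). The deposited values are TPM. The step from Cufflinks to TPM, the annotation and strand handling are not given in the sources used here. Sequencing depth cannot be read from TPM, so it is unknown here, and counting errors are not given.

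The table held 23847 rows, of which 488 repeated a symbol and were summed. Genes that reached 1 TPM in 7 or more of the 16 Taar5 line libraries were tested on log2(TPM + 1) with limma 3.58.1 in R 4.3.3 (lmFit, eBayes with trend), Benjamini-Hochberg adjustment and a threshold of 0.05. Fold changes on this scale understate changes of low genes. The 13 Taar values that control replicate 2 shares with replicate 1 were treated as missing. Log2 ratios and correlations within groups were tested by exact two-sided permutation (Python 3.11.15). Simulated data were used to test the limma code. Positions are from GENCODE M21 and sequences from RefSeq, where 2 of 2 genes matched. Beside the pair, genes were named by fixed rules: up to 2 per list by smallest p, chromosomal neighbours and the 5 nearest by r outside the OR and Taar genes. The remaining genes of the ventral and axon guidance lists were named as well. Ermn and Cyp2a5 were named as the lowest and highest estimates of the sustentacular list. The members and lists were chosen with earlier results of these data known. Leaving out both libraries that stood apart was added after seeing the data.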

Additional observations from a re-analysis of the deposited data

Results flagged for a closer look

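All 5 results set apart here concern control replicate 2, whose gap to the nearest other control was above Dixon's critical value for 9 samples. Its Nqo1 level was 8.91 as log2(TPM + 1), against 10.02 to 10.77 in the other controls. Its log2 ratio of Acsm4 to Nqo1 was 0.76, against -2.52 to -0.99. The log2 of its summed OR transcript was 12.6, against 13.7 to 14.3. The mean log2(TPM + 1) of sustentacular genes was 10.7, against 2.86 to 6.82, and that of mature OSN genes was 8.21, against 9.33 to 10.4. In all, 12 sets of values were checked, of which chance would place 0.6 above the critical value. The low Nqo1 of this library thus came with less OR and OSN transcript and more sustentacular transcript, and their part in it was not tested.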

How the results depend on the processing

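The log2 fold change of Nqo1 stayed between -2.69 and -2.37 and past the threshold under 13 alternatives to the scaling, filter, pseudocount and test, and leaving out each library in turn gave -2.74 to -2.34. Acsm4 stayed past the threshold under 11 (1.43 to 1.61), missed it relative to mature OSN genes (1.38) and without the mean-variance trend (1.53), and ranged from 1.39 to 1.67 with each library left out. For these and the other values whose call moved, the cause was not tested. The log2 ratio difference was 3.80 to 4.04 under 10 alternatives and 3.79 to 4.41 with each library left out. The count of genes called, 21, was 36 after quantile scaling, 11 without receptor genes, 36 relative to mature OSN genes, 1349 with array weights (181 higher, 1168 lower), 337 without both libraries that stood apart, and 16 to 148 with each library left out (148 without control replicate 2, 66 without Taar5+ replicate 5).

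The replicate block gave 13 genes, with Nqo1 at -2.48 (limma adjusted p = 0.00524), Acsm4 at 1.46 (limma adjusted p = 0.017) and a log2 ratio difference of 3.94, higher in 7 of 7 pairs (exact p = 0.0156, the smallest that 128 sign flips allow). The labels do not say that libraries of the same number share a mouse or sort. The correlations of their deviations ran from -0.01 to 0.28 and were above 0.1 in 5 of 7 pairs, and 3 of 7 correlated best with their own number, so whether the numbers pair the libraries is not known.

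With each control left out, r ranged from -0.50 to 0.47 for Nqo1 with Acsm4, -0.065 to 0.89 for Nqo1 with OR transcript, -0.68 to 0.53 for Acsm4 with OR transcript, -0.79 to -0.05 for Nqo1 with sustentacular genes and 0.41 to 0.72 for Acsm4 with them. Without control replicate 2 the first 3 changed sign, to 0.47, -0.065 and 0.53. With each Taar5+ library left out, r ranged from -0.87 to -0.47, 0.27 to 0.94, -0.99 to -0.97, 0.10 to 0.90 and -0.97 to -0.81 in the same order. Without replicate 5 the relations of Nqo1 with Acsm4, OR transcript and sustentacular genes were -0.47, 0.27 and 0.10, and without replicate 6 they passed the adjusted threshold at -0.87, 0.94 and 0.90. Acsm4 with sustentacular genes lost its call without replicate 1, 2, 4 or 5 (exact permutation, adjusted p from 0.0903 to 0.147).

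The depth behind each TPM value is unknown, so the error of single values cannot be separated from the spread between libraries, and a single library per group in the Taar6 line allows no test.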
